A study of Homo sapiens with 3 samples.

Results

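The S100 and annexin genes encode calcium-binding proteins. In the table of Caki-1 cells they were taken by their symbols as the protein-coding genes S100A followed by a number, S100B, S100P and ANXA followed by a number. The rule found 29 members, 17 S100 genes and 12 annexins, among 44591 genes in all, of which 19233 were protein-coding. Caki-1 is an established human clear cell renal carcinoma line. RNA was sequenced 48 h after transfection with a non-targeting siRNA (si-Control) or with either of 2 siRNAs directed at RBCK1 (HOIL-1 in the sample labels), named si-RBCK1 #1 and si-RBCK1 #2 here. The general transfection protocol of the study gives 10 nmol/L siRNA, and its account of the sequencing names no dose. RBCK1 is a subunit of the ligase that assembles linear ubiquitin chains, and the study asked what its loss does to gene expression in renal cancer cells. Each condition had 1 library, so differences could not be checked against replicates and no test was possible. The siRNAs differ as reagents and are given side by side, never averaged, and both comparisons share the si-Control library.

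S100 proteins are small proteins with a pair of EF-hand loops. Most of them change shape when calcium binds and then dock onto partner proteins, and several are also secreted and act on receptors such as AGER and TLR4. Annexins bind acidic membrane phospholipids in a calcium-dependent way through a conserved core, and they take part in membrane repair, vesicle traffic and the link between membrane and actin. The families meet in complexes such as S100A10 with ANXA2 and S100A11 with ANXA1.

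Values are RPKM, reads per kilobase of the length used for each gene, scaled to the reads of the library, so levels can be compared between genes. That length can be shorter than the span of the gene on the chromosome. Log2 ratios over si-Control are differences of log2(RPKM + 1) for each si-RBCK1 library, a scale on which changes of low genes come out too small. The reads behind each value were recovered from the steps between RPKM values, with library totals of 36344428 to 40442939 reads. Intervals are exact Clopper-Pearson intervals (95%) of the log2 ratio of recovered reads without the pseudocount. They cover counting error only. The targeted gene RBCK1 was at 33.3 RPKM in control cells, 9.97 RPKM under si-RBCK1 #1 and 12.3 RPKM under si-RBCK1 #2. The renal lineage factor PAX8 was at 124, 82.5 and 107 RPKM with si-Control, si-RBCK1 #1 and si-RBCK1 #2. The epithelial marker EPCAM was between 0.331 and 0.561 RPKM. The epithelial keratin KRT8 was at 65.6, 172 and 238 RPKM with si-Control, si-RBCK1 #1 and si-RBCK1 #2, KRT18, whose span overlaps that of KRT8, at 95.3, 142 and 172 RPKM, and the mesenchymal marker VIM at 664, 1512 and 1392 RPKM. These 3 markers were higher in both si-RBCK1 libraries, as were most members described below, while PAX8 was lower in both. The part of these markers in the results for the members was not tested. In contrast, the leukocyte marker PTPRC and the endothelial marker PECAM1 were at or below 0.025 RPKM in each library. CA9, a hypoxia marker of many clear cell tumours, was at or below 0.064 RPKM. In such bulk RNA, fewer cells that express a gene and less RNA per cell cannot be told apart.

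Averaged over the 3 libraries, 1 RPKM or more was reached by 17 members, 9 S100 genes and 8 annexins. The other 12, 8 S100 genes and 4 annexins, averaged less, and none was above 1.06 RPKM in any library. The S100 genes summed to 1998 RPKM in control cells, 2785 RPKM under si-RBCK1 #1 and 2460 RPKM under si-RBCK1 #2, which was 0.482%, 0.646% and 0.580% of all RPKM in the library. The annexins summed to 1330.0, 1610.1 and 1559 RPKM in the same order. Few genes carried each family. *S100A6*, *S100A11*, *S100A16* and *S100A10* held 96.1% of the S100 sum with si-Control, and *ANXA2*, *ANXA5*, *ANXA1* and *ANXA7* held 90.3% of the annexin sum.

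**Figure D1:**
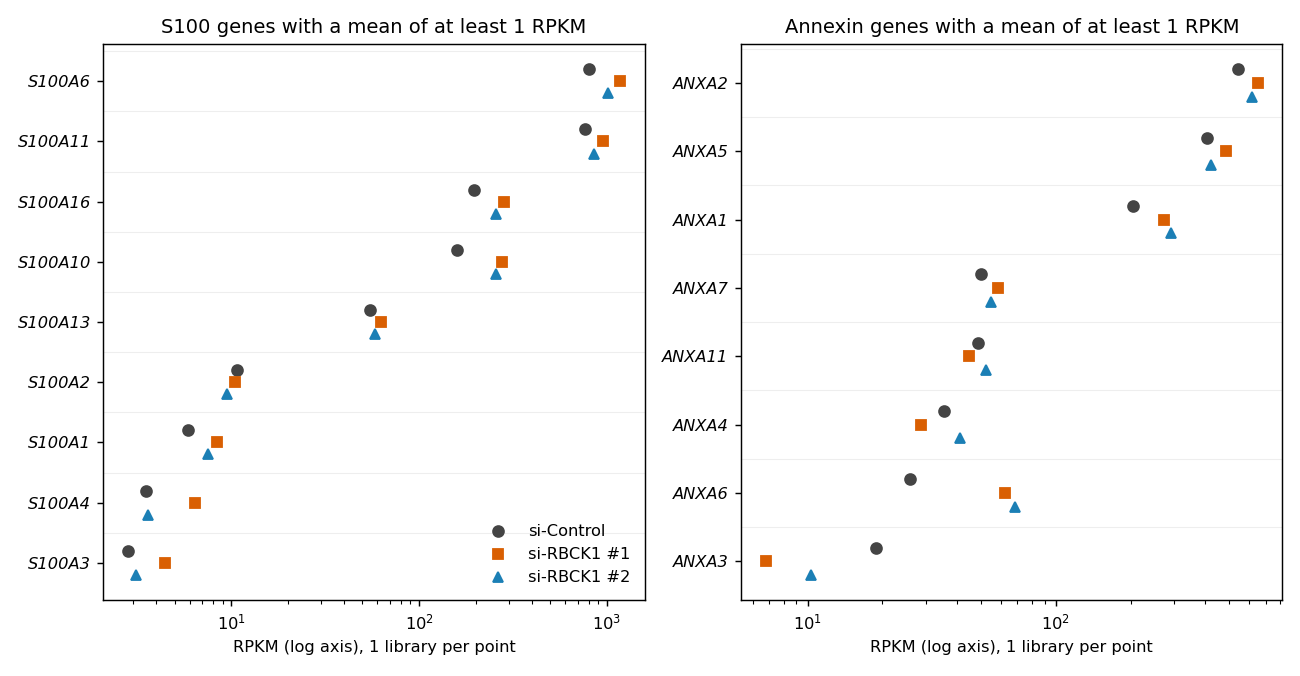
RPKM on a log axis for the 9 S100 genes (left) and 8 annexins (right) that averaged 1 RPKM or more, 1 point per library with no error bars, ordered by the si-Control level. *S100A6* and *S100A11* lie near 1000 RPKM and *S100A3* near 3 RPKM, while *ANXA6* and *ANXA3* show the widest gaps between si-Control and the si-RBCK1 libraries.

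The abundant S100 genes were higher in both si-RBCK1 libraries than in si-Control. *S100A6* (calcyclin), a partner of the ubiquitin ligase adaptor CACYBP, was at 799 RPKM in control cells (20159 reads), 1177 RPKM under si-RBCK1 #1 (32501 reads) and 1012 RPKM under si-RBCK1 #2 (25123 reads). It ranked 60 among protein-coding genes with si-Control, 37 with si-RBCK1 #1 and 43 with si-RBCK1 #2. Its log2 ratios were 0.56 (interval 0.53 to 0.58) and 0.34 (interval 0.31 to 0.37). *S100A6* lies on chromosome 1 from 153507076 to 153508717 on the minus strand of hg19, the build named in the submitters' processing notes. An antisense gene overlaps 516 nt of it and was at 2.38 to 4.74 RPKM.

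*S100A10* (p11), which holds ANXA2 in a complex at the plasma membrane and has lost the ability to bind calcium, had the highest log2 ratio of the abundant S100 genes in each library. The gene spans 151955386 to 151966714 of chromosome 1, minus strand. Its level was 159.8 RPKM in control cells (6224 reads), 277 RPKM under si-RBCK1 #1 (11817 reads) and 255 RPKM under si-RBCK1 #2 (9794 reads). Both si-RBCK1 levels were above that of si-Control, with log2 ratios of 0.79 (interval 0.75 to 0.84) and 0.67 (interval 0.63 to 0.72). *ANXA2* itself was higher by less, at 540.3, 651 and 617 RPKM in the same order. The *S100A10* level per *ANXA2* level was therefore 0.296 with si-Control, 0.425 with si-RBCK1 #1 and 0.414 with si-RBCK1 #2.

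*S100A16*, a widely expressed member, was at 197, 283 and 256 RPKM with si-Control, si-RBCK1 #1 and si-RBCK1 #2, log2 ratios of 0.52 and 0.37. *S100A11*, the partner of ANXA1, was at 764, 956 and 854 RPKM, log2 ratios of 0.32 and 0.16. *S100A13*, which takes part in the release of the growth factor FGF1 from cells, was at 54.6, 62.7 and 58.0 RPKM. These 3 genes were ordered alike, lowest with si-Control and highest with si-RBCK1 #1, and their counting intervals lay above 0 in both comparisons. For *S100A13*, the interval with si-RBCK1 #2 was close to 0, from 0.013 to 0.16.

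Among the low S100 genes the libraries were less alike. *S100A4* (metastasin), a binding partner of non-muscle myosin, was at 3.51 RPKM in control cells (73 reads), 6.401 RPKM under si-RBCK1 #1 (146 reads) and 3.61 RPKM under si-RBCK1 #2 (74 reads). Only the si-RBCK1 #1 library stood apart for *S100A4*, and the log2 ratio of its reads between si-RBCK1 #2 and si-RBCK1 #1 was -0.83 (interval -1.25 to -0.41). *S100A3*, known from the hair cuticle, was at 2.83, 4.46 and 3.13 RPKM in the 3 libraries, from 77, 133 and 84 reads. *S100A2*, an epithelial member, was at 10.8, 10.5 and 9.51 RPKM, and it was the sole S100 gene that passed the filter and was lower in both si-RBCK1 libraries. Both of its intervals hold 0 (-0.25 to 0.16 and -0.40 to 0.033), so its differences were not detectable at this depth.

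*S100A1*, a muscle member, was at 5.88, 8.41 and 7.50 RPKM, from 129, 202 and 162 reads. All 3641 nt of its span lie inside *S100A13* on the opposite strand, which was the more abundant of the pair. The library kit keeps the strand, but whether counting used it is not given in the sources used here. Some reads counted for *S100A1* may therefore belong to *S100A13*, which was not tested. *S100A13* also overlaps 111 nt of *CHTOP*, which was at 46.9 to 56.4 RPKM.

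The 8 S100 genes below the filter were nearly silent. *S100A8* and *S100A9*, whose products form calprotectin in neutrophils, and *S100B*, a glial member, are listed at 0 in each of the 3 libraries. *S100A12* of granulocytes and *S100A7* (psoriasin) of keratinocytes had 1 read each with si-RBCK1 #1 and none elsewhere, and *S100P* had 1 read with si-RBCK1 #2. *S100A5* and *S100A14* had between 1 and 3 reads in each library. A count of 0 allows up to 3 reads, that is, 0.0742 to 0.0825 RPKM for a gene of 1 kb in these libraries.

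Most of the silent S100 genes of chromosome 1 lie next to each other. Of the 17 S100 genes 15 lie on chromosome 1. *S100A10* and *S100A11* lie 38.3 kb apart and were both abundant. After a gap of 1321 kb follow 13 further genes within 276 kb. The 4 genes at the near end of that block, *S100A9*, *S100A12*, *S100A8* and *S100A7*, had at most 1 read in a library. Beyond a gap of 73.9 kb, 7 of the 9 genes from *S100A6* to *S100A1* passed the filter, and the exceptions were *S100A5* and *S100A14*. The gap of 1321 kb holds the cornified envelope genes and the genes of S100-fused proteins such as filaggrin. Of 25 such genes of this chromosome region, none passed the filter, and the highest level in any library was 1.40 RPKM, that of *FLG* with si-RBCK1 #2.

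**Figure D2:**
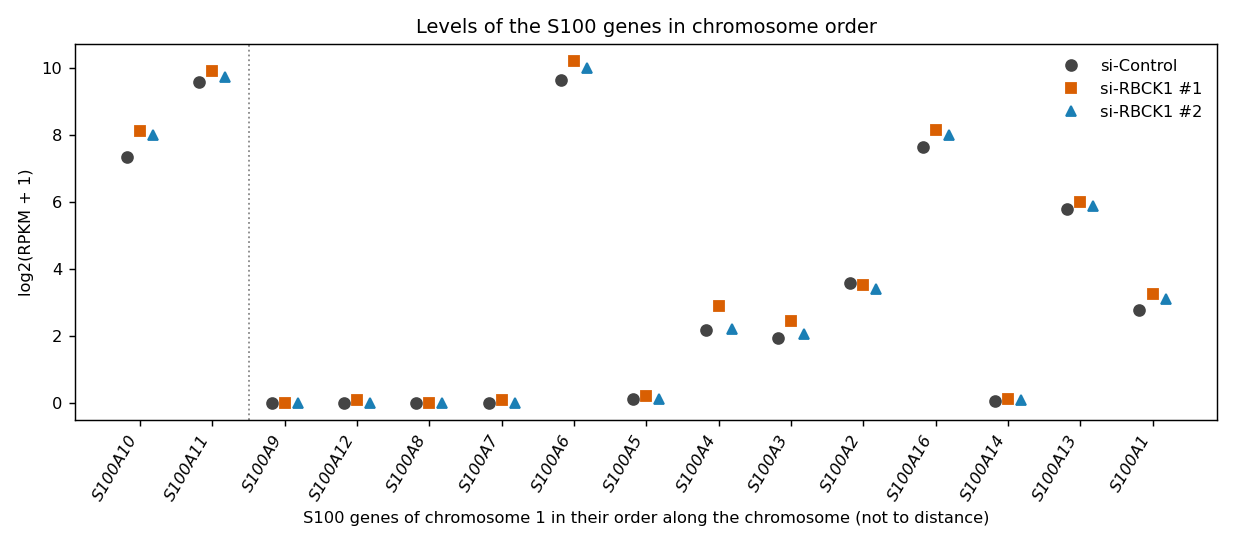
Levels as log2(RPKM + 1) of the 15 S100 genes of chromosome 1 in their order along the chromosome, 1 point per library, with a dotted line at the gap of 1321 kb. The genes from *S100A9* to *S100A7* lie at 0, apart from 1 read each of *S100A12* and *S100A7* with si-RBCK1 #1, between the abundant *S100A10* and *S100A11* on one side and *S100A6* on the other.

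Among annexins, *ANXA6* had the highest log2 ratio with each siRNA. ANXA6 has a duplicated annexin core and binds to the plasma membrane and late endosomes, where it is tied to cholesterol traffic. The gene spans 150480267 to 150537443 of chromosome 5, minus strand. Its level was 25.8 RPKM in control cells (2962 reads), 62.4 RPKM under si-RBCK1 #1 (7856 reads) and 68.7 RPKM under si-RBCK1 #2 (7774 reads). Both si-RBCK1 libraries were more than 2-fold above si-Control, with log2 ratios of 1.24 and 1.38. On reads alone the folds were 2.42 (log2 interval 1.21 to 1.34) and 2.67 (log2 interval 1.35 to 1.48). Its rank among protein-coding genes was 2503 with si-Control, 1012 with si-RBCK1 #1 and 880 with si-RBCK1 #2.

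*ANXA3*, a short-tailed annexin found in neutrophils and epithelia, was lower in both si-RBCK1 libraries. The gene spans 79472742 to 79531605 of chromosome 4, plus strand. Its level was 18.8 RPKM in control cells (1123 reads), 6.79 RPKM under si-RBCK1 #1 (444 reads) and 10.4 RPKM under si-RBCK1 #2 (609 reads). The log2 ratios were -1.35 and -0.80, with intervals on reads of -1.63 to -1.31 and -1.005 to -0.72. *ANXA3* was past 2-fold with si-RBCK1 #1 alone, and the log2 ratio of its reads between si-RBCK1 #2 and si-RBCK1 #1 was 0.61 (interval 0.43 to 0.79).

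Of the other annexins, *ANXA1*, *ANXA2*, *ANXA5* and *ANXA7* were higher in both si-RBCK1 libraries, by less than 1.5-fold. *ANXA1*, a glucocorticoid-induced protein that dampens inflammation through formyl peptide receptors, was at 204, 272 and 291 RPKM, log2 ratios of 0.41 and 0.51. *ANXA2* had log2 ratios of 0.27 (interval 0.25 to 0.29) and 0.19 (interval 0.17 to 0.21). *ANXA5*, which binds exposed phosphatidylserine and is used as a stain for dying cells, was at 406, 485 and 422 RPKM, log2 ratios of 0.25 and 0.05. *ANXA7* (synexin), which promotes membrane fusion, was at 50.0, 58.6 and 54.9 RPKM. Thus *ANXA1* and *ANXA6* were highest with si-RBCK1 #2, and *ANXA2*, *ANXA5* and *ANXA7* with si-RBCK1 #1. The *ANXA5* ratio with si-RBCK1 #2 depends on scaling, and was 0.0024 with libraries scaled to equal medians.

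*ANXA4* and *ANXA11* lay on opposite sides of si-Control with the 2 siRNAs. *ANXA4*, abundant in kidney epithelium, was at 35.6 RPKM in control cells, 28.5 RPKM under si-RBCK1 #1 and 40.9 RPKM under si-RBCK1 #2. Its log2 ratios were -0.31 (interval on reads -0.38 to -0.26) and 0.20 (interval on reads 0.15 to 0.26). *ANXA11*, whose long tail tethers RNA granules to lysosomes, was at 48.4, 44.7 and 52.4 RPKM, log2 ratios of -0.11 and 0.11. Among all genes with whole reads, 4.57% had counting intervals off 0 in opposite directions.

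Copies of *ANXA2* were low beside it. The processed pseudogene *ANXA2P2* was at 2.09, 2.91 and 2.16 RPKM, and *ANXA2P1* and *ANXA2P3* at or below 0.082 RPKM. *ANXA8* is listed at 0 in each library and its near-identical copy *ANXA8L1* had 1 read with si-RBCK1 #2. Reads that fit several copies equally well may be lost in counting, so *ANXA8* is uncertain. Of the annexins below the filter, *ANXA9*, which lacks the usual calcium sites, was at 0.609, 1.06 and 0.664 RPKM. *ANXA13* of intestinal epithelium had 10, 9 and 26 reads in the 3 libraries. *ANXA10* of gastric epithelium had 3, 12 and 5 reads.

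**Figure D3:**
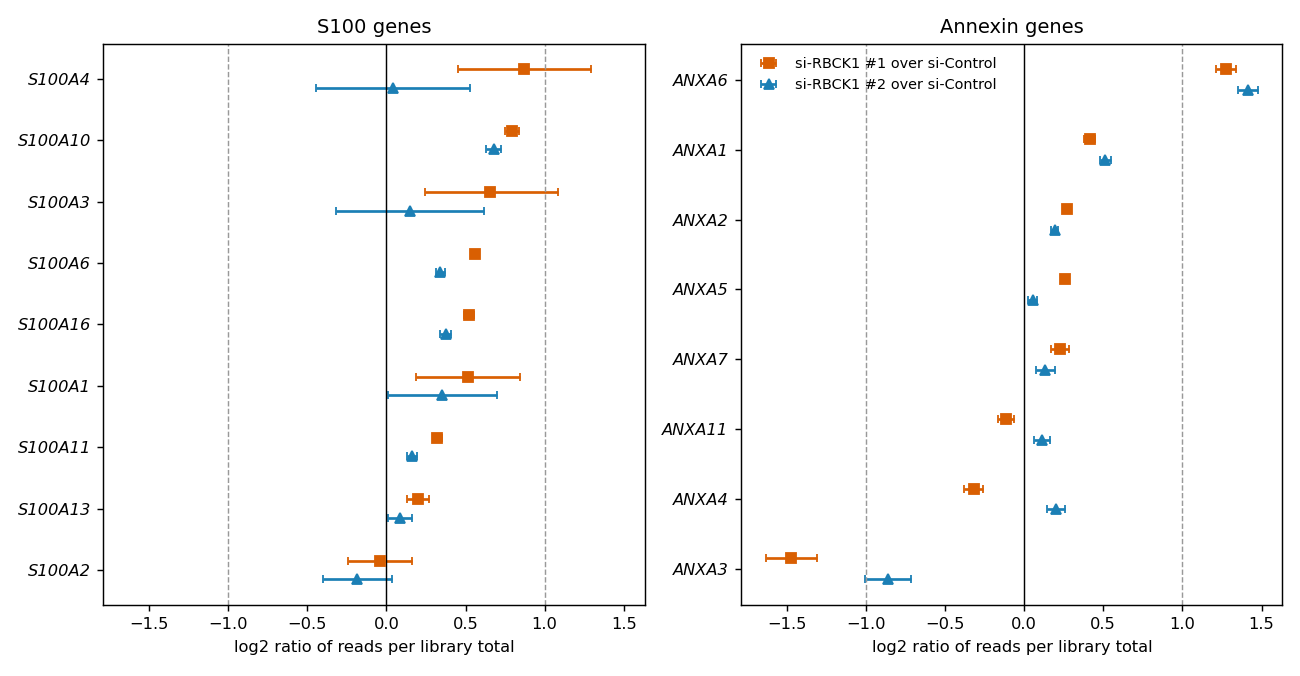
Log2 ratio of recovered reads per library total, each si-RBCK1 library over si-Control, for S100 genes (left) and annexins (right). Points are single libraries, bars are exact 95% intervals of counting error, and dashed lines mark 2-fold. *ANXA6* lies beyond the upper dashed line with both siRNAs, *ANXA3* beyond the lower one with si-RBCK1 #1, and *ANXA4* and *ANXA11* on both sides of 0.

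Set against all 12403 genes that averaged 1 RPKM or more, few members passed 2-fold. With si-RBCK1 #1, 2 of 17 members did (*ANXA6* and *ANXA3*), beside 6.18% of all genes. With si-RBCK1 #2, 1 of 17 did (*ANXA6*), beside 4.76%. *ANXA6* was past 2-fold higher with both siRNAs, beside 1.46% of all genes, and 0 members were past 2-fold lower with both, beside 1.41%. At 1.5-fold, 4 of 17 members were past the limit with si-RBCK1 #1 (23.7% of all genes) and 3 of 17 with si-RBCK1 #2 (20.6% of all genes), so at either limit the number of members was close to what the background share gives. *ANXA6* and *S100A10* were past 1.5-fold higher with both siRNAs (7.47% of all genes) and *ANXA3* was past 1.5-fold lower with both (6.24% of all genes).

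The direction was more uniform than the size. A log2 ratio above 0 was seen in 13 of 17 members with si-RBCK1 #1, beside 51.5% of all genes, and in 15 of 17 with si-RBCK1 #2, beside 53.5%. This lean was not particular to the members. Among the 23 other EF-hand genes described below, 17 were above 0 with si-RBCK1 #1 and 18 with si-RBCK1 #2. Among the 15 C2-domain genes described below, 6 were above 0 with each siRNA. In both libraries, 8 of 9 S100 genes and 5 of 8 annexins were above 0, beside 43.3% of all genes. The counting interval lay above 0 in both libraries for 11 of 17 members, beside 31.9% of genes, and many members have far more reads than most genes. These were 6 of 9 S100 genes and 5 of 8 annexins. The intervals of *S100A3* and *S100A4* with si-RBCK1 #2 hold 0, and some reads counted for *S100A1* may belong to *S100A13*. The median log2 ratio of the S100 genes was 0.51 with si-RBCK1 #1 and 0.16 with si-RBCK1 #2, and that of the annexins was 0.24 and 0.16. The median of all genes was 0.02 and 0.03. The S100 medians depend on which genes are counted: with no filter they were 0.082 and 0.037, and with members of at least 5 RPKM the second was 0.31. With a pseudocount of 5 RPKM the first was 0.32.

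**Figure D4:**
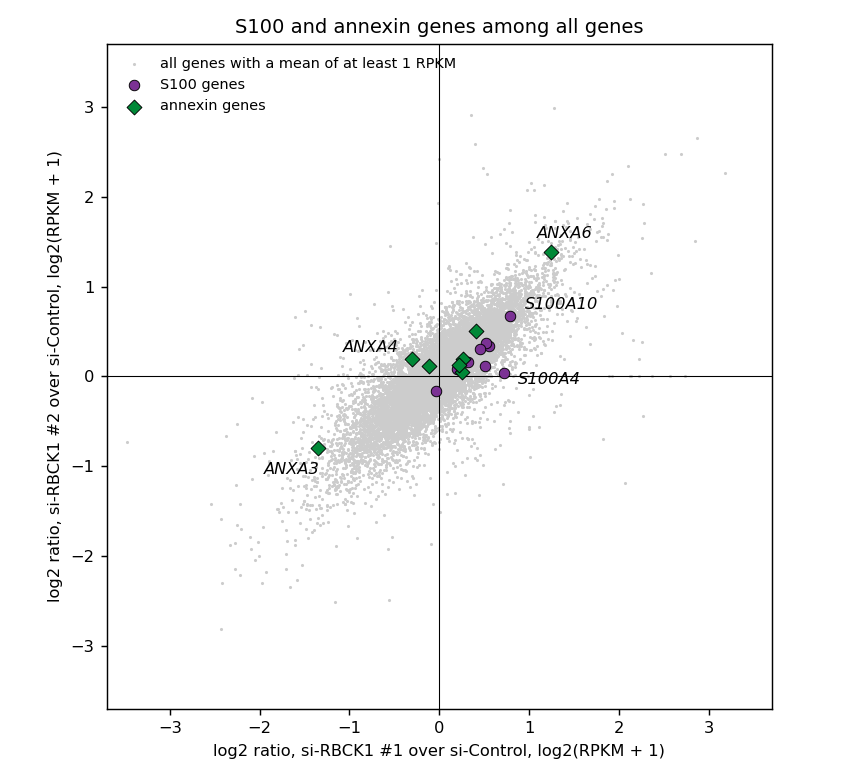
Log2 ratio with si-RBCK1 #1 (x axis) and si-RBCK1 #2 (y axis) over si-Control on the log2(RPKM + 1) scale, for all 12403 genes (grey) and the 17 members (S100 circles, annexin diamonds). Both axes share the si-Control library, which alone draws points towards the diagonal. Most members lie in the upper right near the origin, while *ANXA6* at 1.24 and 1.38 and *ANXA3* at -1.35 and -0.80 lie apart.

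Between the siRNAs, the S100 genes with a detectable difference were all lower with si-RBCK1 #2 than with si-RBCK1 #1. This was the case for 7 of 9 S100 genes, with the interval of the ratio below 0, beside 29.1% of all genes. Such counts rise with read depth, and many members have far more reads than most genes. The annexins were divided, 3 of 8 lower and 5 of 8 higher with si-RBCK1 #2, beside 29.1% and 33.4% of all genes. The S100 sum was 1.39 times that of si-Control with si-RBCK1 #1 and 1.23 times with si-RBCK1 #2, and the annexin sum was 1.21 and 1.17 times.

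Promoters are shown for *ANXA6* and *ANXA3*, the members past 2-fold, for *S100A10* as the abundant S100 gene with the highest ratios, and for *S100A9* as a gene listed at 0. They are the 250 bases before the outermost RefSeq start, 5′ to 3′ on the strand of the gene, in GRCh38.p14 coordinates, which differ from those of the table. Capitals mark matches on either strand to TATAAA, to the GC box GGGCGG, to CCAAT or to the AP-1 motif TGANTCA, and no marked matches overlap.
ANXA6 (chr5:151157780-151158029, minus strand): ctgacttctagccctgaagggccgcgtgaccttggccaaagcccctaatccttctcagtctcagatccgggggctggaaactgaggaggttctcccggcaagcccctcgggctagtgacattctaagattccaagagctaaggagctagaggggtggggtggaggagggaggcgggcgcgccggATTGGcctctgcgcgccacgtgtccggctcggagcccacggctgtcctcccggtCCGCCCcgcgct
ANXA3 (chr4:78551520-78551769, plus strand): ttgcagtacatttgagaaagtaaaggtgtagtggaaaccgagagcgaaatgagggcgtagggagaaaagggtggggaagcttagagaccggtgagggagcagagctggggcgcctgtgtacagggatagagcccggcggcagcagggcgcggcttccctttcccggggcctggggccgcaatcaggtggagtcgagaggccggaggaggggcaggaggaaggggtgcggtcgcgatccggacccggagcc
S100A10 (chr1:151993860-151994109, minus strand): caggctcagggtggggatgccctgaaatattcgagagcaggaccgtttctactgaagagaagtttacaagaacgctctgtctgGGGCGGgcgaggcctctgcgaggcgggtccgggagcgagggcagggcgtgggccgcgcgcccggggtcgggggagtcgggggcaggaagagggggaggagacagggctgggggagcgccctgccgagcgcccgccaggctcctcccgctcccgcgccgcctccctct
S100A9 (chr1:153357604-153357853, plus strand): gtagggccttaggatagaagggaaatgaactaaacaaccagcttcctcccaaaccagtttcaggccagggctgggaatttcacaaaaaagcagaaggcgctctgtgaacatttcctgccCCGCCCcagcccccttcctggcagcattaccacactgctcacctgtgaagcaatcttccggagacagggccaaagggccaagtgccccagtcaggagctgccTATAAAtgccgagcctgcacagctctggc
*ANXA6* holds 1 GC box and 1 CCAAT match, *S100A10* holds 1 GC box, and *ANXA3* holds 0 matches to any of these letters. *S100A9* holds 1 TATAAA match and 1 GC box. Among all 35116 listed RefSeq promoters, cut to the same length but with several for some genes, TATAAA was in 10.7%. GGGCGG was in 42.6%, CCAAT in 32.0% and TGANTCA in 6.57%. These matches are descriptions of the letters and say nothing of binding.

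A promoter was listed for 26 of the 29 members. The number of CpG dinucleotides in the 250 bases had a median of 11 over all promoters listed. That median counts some genes several times, while each member enters by its outermost start alone. In the 9 S100 genes that passed the filter the median was 7, below that of all promoters, with 24 in both *S100A6* and *S100A10* and 15 in both *S100A11* and *S100A13*. *S100A4* had 7, *S100A1* had 6, and *S100A2* and *S100A3* had 4 each. The 7 S100 genes with a listed promoter that did not pass the filter had between 1 and 5, a range that overlaps that of the genes that passed. *S100A16*, abundant at 197 RPKM with si-Control, had 1 before its outermost start. The annexins that passed the filter had a median of 19.5 CpG dinucleotides and a range from 0 in *ANXA1* to 36 in *ANXA4*. *ANXA6* had 19 and *ANXA3* had 18, and which start was in use in these cells was not tested.

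The genes that work with S100 proteins and annexins were described by lists drawn from general knowledge. Of 28 partners and receptors, 23 passed the filter, and their median log2 ratios were 0.19 and 0.19. Past 2-fold were 2 of 23 with si-RBCK1 #1 (*CACYBP*, higher, and *DLC1*, lower), beside 6.18% of all genes, and 1 of 23 with si-RBCK1 #2 (*DLC1*), beside 4.76%. *DLC1* was thus at least 2-fold lower with both, beside 1.41%, and these counts are near the background. *DLC1*, a binding partner of S100A10, was at 32.1, 13.6 and 15.2 RPKM, log2 ratios of -1.18 and -1.03. *MYH9*, the non-muscle myosin heavy chain that S100A4 binds, had the highest si-Control level of the list, and was at 107, 81.2 and 131 RPKM, below si-Control with one siRNA and above it with the other.

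A few partners were picked after their values were seen. *CACYBP*, the S100A6-binding adaptor, was at 56.6, 118 and 96.7 RPKM, log2 ratios of 1.05 and 0.76. *AHNAK*, a giant scaffold that binds the S100A10 and ANXA2 complex, was at 61.7, 106 and 122 RPKM, log2 ratios of 0.77 and 0.97. *AHNAK* and *CACYBP* were picked with their values known, so their direction says nothing of the partners as a group. Of the 23 partners and receptors, 14 had a log2 ratio above 0 with si-RBCK1 #1, beside 51.5% of all genes. With si-RBCK1 #2, 18 of 23 did, beside 53.5%. The receptors on the list differed in level. *BSG* (basigin), a receptor for S100A9, was at 91.1, 105 and 121 RPKM, its relative *NPTN* at 32.7, 44.6 and 39.1 RPKM and *ALCAM* at 19.6, 15.2 and 17.1 RPKM. *TLR4* was at 2.17, 1.88 and 2.59 RPKM, *AGER* at or below 0.691 RPKM, and the formyl peptide receptor genes *FPR1*, *FPR2* and *FPR3* had at most 3 reads in a library.

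Of 39 other EF-hand genes, 23 passed the filter, with medians of 0.18 and 0.20, and 0 were past 2-fold in either comparison on the log2(RPKM + 1) scale, beside 6.18% and 4.76% of all genes. *EFHD2*, picked after its values were seen, was just under that limit with si-RBCK1 #2, at a log2 ratio of 0.98, and just over it on reads without the pseudocount, at a fold of 2.01. *RCN1*, a calcium-binding protein of the endoplasmic reticulum, had the highest si-Control level of these, and was at 331, 167 and 288 RPKM, log2 ratios of -0.98 and -0.20. Its level with si-RBCK1 #1 stood apart from both others. The EF-hand list includes *S100A7A*, *S100G* and *S100Z*, S100 genes outside the symbol rule that are listed at 0 in each library. *PDCD6* and *SRI* are also on the list of partners and receptors.

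Many C2-domain proteins, though not all, bind membranes in response to calcium by another fold. Of 39 C2-domain genes, 38 were in the table as protein-coding and 15 passed the filter. Their medians were -0.39 and -0.29, on the other side of 0 from those of the S100 genes and annexins. *MYOF* (myoferlin), a membrane repair protein with the highest si-Control level of the list, was at 79.7, 49.9 and 56.9 RPKM. *PRKCA*, a protein kinase C, was at 52.1, 12.6 and 15.6 RPKM, log2 ratios of -1.96 and -1.68. *SYT1* (synaptotagmin), a calcium sensor of vesicle release, was at 3.35, 0.0696 and 0.207 RPKM, from 658, 15 and 40 reads. *PRKCA* and *SYT1* were the 2 of 15 genes at least 2-fold lower with both siRNAs, beside 1.41% of all genes. *SYT1* passed the filter only through its si-Control level, so it could be counted only as lower. The count of 2 rests in part on that.

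**Figure D5:**
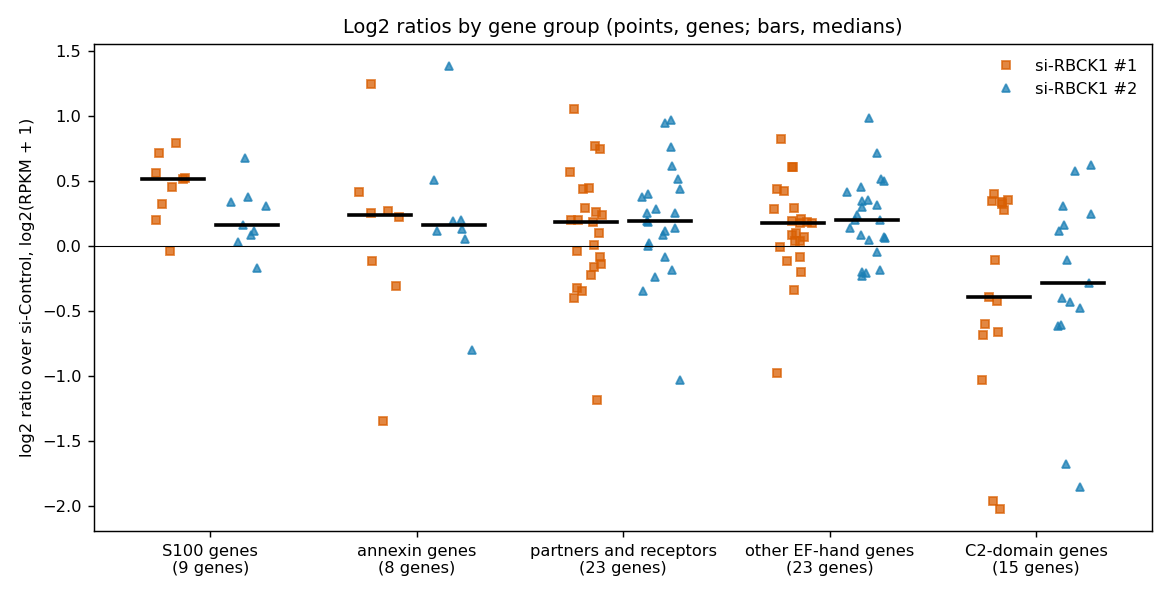
Log2 ratios over si-Control on the log2(RPKM + 1) scale for genes that passed the filter, by group, with si-RBCK1 #1 as squares and si-RBCK1 #2 as triangles, and black bars at the medians. The S100 medians are 0.51 and 0.16 and the C2-domain medians are -0.39 and -0.29, and genes of every group lie on both sides of 0 with si-RBCK1 #1.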

How the data were processed

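The authors deposited 1 table with an RPKM value per gene for each of 3 libraries of Caki-1 cells, 1 library per condition. Per the labels, ribosomal RNA was removed and a directional kit was used. The submitters' processing notes name FastQC, Trimmomatic, TopHat2, HTSeq and the build hg19, with no role or order. The table also holds the authors' own fold changes, p-values and q-values, which were not used.

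The value of 1 read in genes of up to 200 nt gave the library totals. Whole reads within 0.0005 and a length of up to 50000 nt were then searched for each gene, and 12387 of 12403 genes (99.9%) gave them. The reads found are the smallest that the values allow. Genes that averaged 1 RPKM or more were used, with a pseudocount of 1 RPKM and a limit of 2-fold, the fold change the study used for its gene lists. No p-value was computed, since no condition has a replicate. Other pseudocounts, filters, scalings and a limit of 1.5-fold were tried. The steps were tested on simulated data.

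Each member that passed the filter is named with its values, the others by their reads, and of each further list the gene with the highest si-Control level and the genes past 2-fold in 1 direction with both siRNAs. Members and lists were chosen with earlier results of these data known. The genes of the cell type check were chosen after the data were seen. The scripts ran under Python 3.11.15 with pandas 2.3.3 for tables, scipy 1.17.1 for intervals, numpy 2.4.6, and matplotlib 3.10.9 for figures.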

Additional observations from a re-analysis of the deposited data

Results flagged for a closer look

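*ANXA4* and *ANXA11* stood out because they lay on opposite sides of si-Control in the si-RBCK1 libraries, with counting intervals off 0. The log2 difference of si-RBCK1 #2 minus si-RBCK1 #1 was 0.51 for *ANXA4* (interval on reads 0.46 to 0.58) and 0.23 for *ANXA11* (interval on reads 0.18 to 0.28). With 1 library per siRNA, these differences were not tested against the spread between cultures.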

How the results depend on the processing

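No paired analysis was possible because 1 library stood for each condition. The counts of members past 2-fold (2, 1 and 1 with si-RBCK1 #1, si-RBCK1 #2 and both the same way) were the same under each of the other pseudocounts, filters and scalings, and a limit of 1.5-fold gave 4, 3 and 3, as a looser limit must. The S100 median with si-RBCK1 #1 was 0.32 with a pseudocount of 5 RPKM. Without a filter, which brings in members near 0 RPKM, the S100 medians dropped to 0.082 and 0.037. With a mean of at least 5 RPKM, which leaves out *S100A3* and *S100A4*, the second was 0.31. The annexin median with si-RBCK1 #1 was 0.18 with equal totals, a scaling that lowers every si-RBCK1 #1 value by the same factor. The log2 ratio of *S100A4* with si-RBCK1 #2 turned to -0.0064 with equal medians. Of 136 ratios of single members under other pseudocounts and scalings, 25 others moved beyond the counting interval without a change of sign. The scalings moved the median of all genes by at most 0.0485 on the log2 scale. Intervals do not cover the spread between cultures, which 1 library per condition cannot give.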
